A study of Mus musculus with 2 samples.

Results

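Lef1, Tcf7, Bcl11b, Gata3, Satb1, Foxo1, Foxp1, Runx3, Tox and Id3 are 10 genes of transcription regulators that set up or maintain T cell identity. They were chosen by name, and each was read from probe sets that carry that gene symbol alone, taking the probe set with the highest mean of both arrays. Of the 10 genes, 9 had such a probe set among 22180 genes measured. The platform annotation used here lists no probe set for Tcf7, so Tcf7 is not analysed here.

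Gene expression had been measured on 2 Affymetrix whole-transcript arrays, 1 per group, with RNA of splenocytes from Fx-/- mice. Fx, now called Gfus, encodes an enzyme of the pathway that makes GDP-fucose from mannose, so both groups depended on supplied fucose. The on-fucose array came from fucose-treated mice and the off-fucose array from mice with no fucose treatment. No wild-type group was used here, and the labels give no age, sex, strain background or number of mice per array. Beads against B220 and CD11b removed B cells and myeloid cells, and beads against CD11c then selected the rest, which the labels call cDC1, conventional type 1 dendritic cells.

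Tcf7 and Lef1 encode related HMG-box proteins that open the T lineage programme downstream of Notch, a receptor that needs O-fucose, and that can bind beta-catenin. Gata3 and Bcl11b then commit the precursor to the T lineage, and Satb1 and Runx3 shape chromatin and the choice of the CD4 or CD8 coreceptor. Foxo1 and Foxp1 keep naive T cells quiescent and circulating, Id3 restrains E proteins, and Tox acts in CD4 T cell development and in chronically stimulated T cells. Outside T cells, Gata3 is known in innate lymphoid cells, and Foxo1 and Foxp1 in B cells.

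The cells on both arrays carried strong T cell signal, which bears on every value of the T cell regulators. On each array, all 17 measured genes of T cell receptor and signalling ranked among the top 20%. Of 14 cDC1 markers, 4 did so on fucose and 7 off fucose. Cd8a, Ly75 and Itgae were in both of these counts, and Naaa completed the lower count. Cd8a encodes a chain of the CD8 coreceptor, which T cells carry, so these counts do not reflect cDC1 alone. The T cell part of these marker values was not tested. The log2 intensity of the median gene was 2.88 on the on-fucose array and 2.91 on the other. Xcr1, a chemokine receptor gene typical of cDC1, had 2.90 and 3.43, Zbtb46, a factor of conventional dendritic cells, had 2.84 and 2.98, and Itgax, which encodes CD11c, had 3.83 and 3.86. Several other cDC1 markers were higher off fucose by larger differences. Naaa, a lysosomal amidase gene, had 5.97 and 8.36, the transcription factor genes Irf8 and Batf3 had 4.18 and 6.68, and 4.58 and 5.49, Wdfy4, which cross-presentation requires, had 4.28 and 5.84, and the RNA sensor gene Tlr3 had 2.95 and 4.96. Such ranks set probe sets of different response side by side and give no share of a cell type. The arrays also differed in sex-linked genes, with Xist, which silences 1 X chromosome in female cells, at 8.26 on fucose and 2.82 off fucose, and the Y-linked Uty at 2.14 and 5.26.

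Promoter windows are shown first for 4 genes, Lef1, Runx3, Foxp1 and Bcl11b. Those of Lef1, Runx3 and Foxp1 hold letters searched for their own protein family, and that of Bcl11b holds those for the TCF/LEF proteins. Windows of Tcf7, Gata3 and Satb1 also hold some of the searched letters and are not shown. Each window runs from 250 bases before to 50 bases after a RefSeq transcript start (GRCm38.p6), and windows were found for 9 of the 10 genes, Tcf7 included and Tox not, 20 windows in all. Short letter strings were searched on both strands. For the TCF/LEF proteins the string was CTTTGA, and for the GATA proteins it was AGATAA. The RUNX proteins were given the string TGTGGT, and forkhead proteins the string TAAACA. An E-box, which E proteins read, was searched as CAGGTG, and the site of ETS proteins was searched as CCGGAA. Capitals mark these letters or their reverse complements. The arrays hold no measure of factor binding or of which start was in use.

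Lef1, the last of 4 listed starts, chr3:131156044-131156343, plus strand: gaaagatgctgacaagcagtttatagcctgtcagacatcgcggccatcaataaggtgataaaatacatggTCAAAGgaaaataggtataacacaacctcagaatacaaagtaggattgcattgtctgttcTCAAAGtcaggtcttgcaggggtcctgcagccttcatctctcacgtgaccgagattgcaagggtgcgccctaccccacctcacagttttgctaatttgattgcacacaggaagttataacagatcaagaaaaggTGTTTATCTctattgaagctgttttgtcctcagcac
Runx3, the first of 2 listed starts, chr4:135120395-135120694, plus strand: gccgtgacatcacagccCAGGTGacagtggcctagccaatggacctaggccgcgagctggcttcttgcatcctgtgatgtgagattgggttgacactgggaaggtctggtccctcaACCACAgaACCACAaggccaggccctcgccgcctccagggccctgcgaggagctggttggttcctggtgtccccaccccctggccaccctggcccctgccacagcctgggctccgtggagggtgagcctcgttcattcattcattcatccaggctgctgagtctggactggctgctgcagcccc
Foxp1, the second of 3 listed starts, chr6:99266466-99266765, minus strand: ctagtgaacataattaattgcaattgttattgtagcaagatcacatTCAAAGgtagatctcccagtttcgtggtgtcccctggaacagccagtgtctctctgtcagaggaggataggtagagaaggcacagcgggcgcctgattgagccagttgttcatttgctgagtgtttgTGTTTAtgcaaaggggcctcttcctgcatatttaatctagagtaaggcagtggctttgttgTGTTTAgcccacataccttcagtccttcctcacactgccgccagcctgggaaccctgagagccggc
Bcl11b, the 1 listed start, chr12:108003365-108003664, minus strand: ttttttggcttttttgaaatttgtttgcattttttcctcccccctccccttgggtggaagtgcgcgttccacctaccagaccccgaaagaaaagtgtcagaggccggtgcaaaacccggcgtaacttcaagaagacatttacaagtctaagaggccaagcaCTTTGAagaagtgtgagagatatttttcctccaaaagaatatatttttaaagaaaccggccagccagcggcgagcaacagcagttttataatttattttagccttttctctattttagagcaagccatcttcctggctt

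Of 6 genes whose own family has one of the searched motifs, 3 held those letters in at least 1 window, namely Lef1 in 1 of 4 windows, Runx3 in 1 of 2 and Foxp1 in 3 of 3. Tcf7, Gata3 and Foxo1 held them in none of theirs. The Lef1 window shown holds the TCF/LEF letters at 2 positions, 180 and 120 bases before the start, and near its end the forkhead and GATA letters overlap in 1 run. The Runx3 window shown holds the RUNX letters at 2 positions, 134 and 126 bases before the start. The Foxp1 window shown holds the forkhead letters at 2 positions. Bcl11b, a known target of the Tcf7 protein, holds the TCF/LEF letters 89 bases before its start. Over all 32851 windows of this length, 16.0% hold the TCF/LEF letters, 16.8% the RUNX letters, 13.4% the forkhead letters, 11.2% the GATA letters, 20.2% the E-box letters and 14.9% the ETS letters. Among the 20 windows of the T cell regulators, which are several per gene and overlap in part, the shares were 15%, 5%, 25%, 5%, 30% and 10% in the same order. A match is a description of letters and not a binding site.

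All 9 measured genes had lower values off fucose than on fucose, by log2 differences between -0.80 in Id3 and -0.02 in Tox, with a median of -0.40, although Tox turned to 0.036 with quantile normalisation, 0.070 with loess and 0.032 with median centring. None was 2-fold lower or higher, and 2, Id3 and Gata3, were at least 1.5-fold lower. Among the 11090 genes past a filter on low intensity (a mean log2 intensity of both arrays of at least 2.88, the median of all genes), 4.27% were at least 1.5-fold lower off fucose, 5.77% at least 1.5-fold higher, 0.514% at least 2-fold lower and 2.37% at least 2-fold higher. The median difference of all these genes was -0.05, and 56.5% of them lay below 0. Brighter genes gave like shares: of the 5124 genes whose mean log2 intensity was 5 or more, 61.5% lay below 0 and 4.04% were at least 1.5-fold lower. All 9 regulators passed the filter at 2.88 and lay above the median gene on each array, and 8 of them, all but Id3, had a mean of 5 or more. With 1 array per group, there is no replicate error and no test, and every difference is on the log2 scale, with the on-fucose value subtracted.

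**Figure D1:**
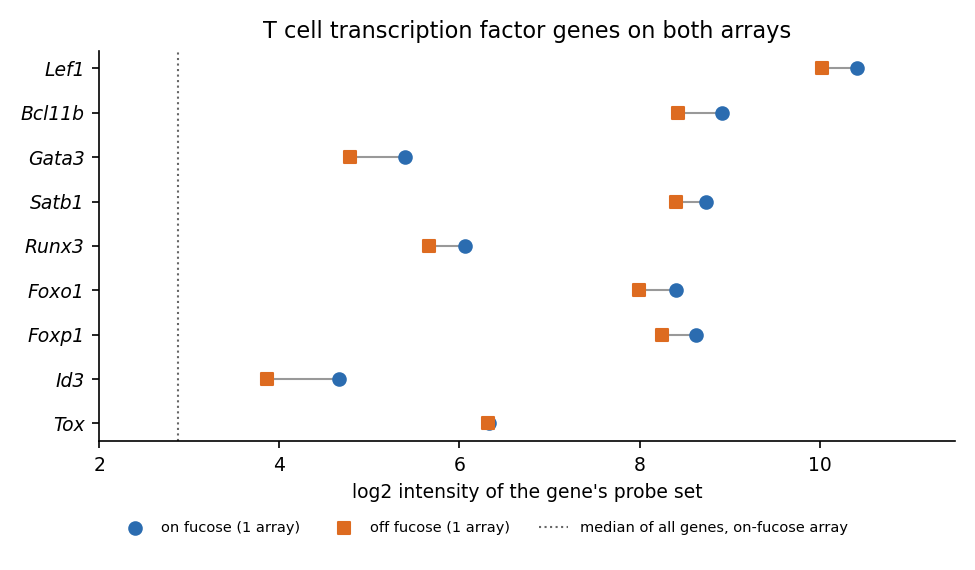
Log2 intensity (x axis) of the 9 measured T cell transcription factor genes (y axis) on the on-fucose array (circles) and the off-fucose array (squares), 1 array each. The dotted line is the median gene of the on-fucose array. The off-fucose value is the lower one for each gene, and the pair of values almost coincides for Tox.

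Lef1, the HMG-box factor of naive and precursor T cells, had log2 intensities of 10.42 on fucose and 10.03 off fucose. The off-fucose value was 1.31-fold lower, a difference of -0.39. As a yardstick for genes of like intensity, genes past the filter were cut into 20 bins by mean intensity, and the robust SD of the differences was taken in each. It was 0.18 in the bin of Lef1, where 28 of 555 genes, Lef1 among them, had a difference as low as Lef1 or lower. This spread mixes technical and biological differences between both arrays and is no replicate error.

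Bcl11b, the zinc finger factor of T lineage commitment, went from 8.91 on fucose to 8.43 off fucose, which is 1.40-fold lower. Its difference was -0.49, and 30 of 554 genes of like intensity, Bcl11b included, were as low or lower. Satb1, an organiser of chromatin loops in thymocytes, had 8.74 and 8.40, a difference of -0.34, with 70 of 554 genes in its bin at or below it. Both genes were bright on each array and lower off fucose by more than the robust SD of 0.21 in their bin.

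Gata3, which specifies early T cells and type 2 helper T cells, had 5.40 on fucose and 4.79 off fucose. This is 1.52-fold lower, a difference of -0.61, and the robust SD among genes of like intensity was 0.32. A second probe set that names Gata3 alone had 3.45 and 3.18, a difference of -0.26, and a probe set shared with other gene symbols had 2.52 and 2.48. All 3 probe sets had the lower value off fucose, but only the brightest passed 1.5-fold. Gata3 no longer passed it with the mean of the first pair (-0.44), quantile normalisation (-0.55), loess (-0.52) or median centring (-0.56).

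Runx3, a Runt-domain factor that silences Cd4 in cytotoxic T cells, had 6.06 on fucose and 5.66 without it, a difference of -0.40 against a robust SD of 0.30. Of the 555 genes in its bin, 88 lay at or below it.

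Foxo1, the forkhead factor that keeps naive T cells recirculating, had 8.40 on fucose and 7.99 off fucose, which is 1.33-fold lower. A second and much dimmer probe set of Foxo1 had 3.11 and 2.69, so that the differences of the bright and the dim probe set were -0.41 and -0.42. Foxp1, a forkhead factor that enforces T cell quiescence, had 8.62 and 8.25, a difference of -0.37. The bins of Foxo1 and Foxp1 had a robust SD of 0.21, and 40 and 54 of 554 genes respectively lay at or below them.

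Id3, an HLH protein without a DNA-binding region that holds E proteins in check, had 4.66 on fucose and 3.86 off fucose. It had the lowest difference of the 9 genes at -0.80, or 1.74-fold lower, and 125 of the 11090 genes past the filter lay at or below it. Its probe set was also the dimmest of those used here, and the robust SD among genes of like intensity was 0.35. Tox, an HMG-box factor of CD4 T cell development, stood apart with 6.33 on fucose and 6.31 off fucose. Its difference of -0.02 lay close to the median of all genes.

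**Figure D2:**
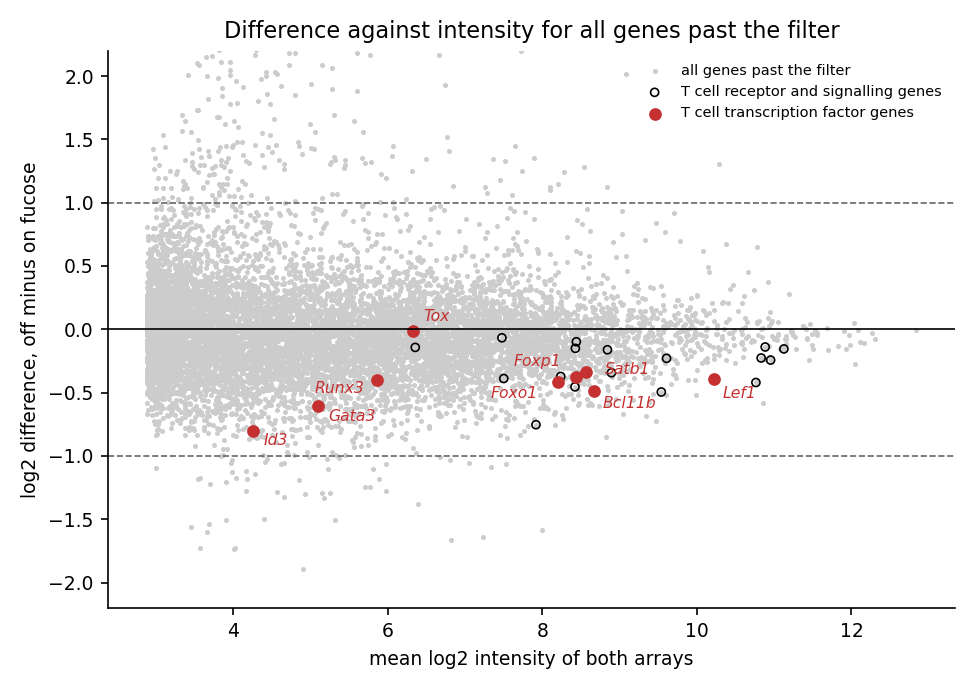
Log2 difference, off minus on fucose (y axis), against mean log2 intensity of both arrays (x axis) for the 11090 genes past the filter (grey), the 17 measured T cell receptor and signalling genes (open circles) and the 9 T cell transcription factor genes (red). Dashed lines mark 2-fold, and 66 genes lie beyond the y axis limits of 2.2. The red points other than Tox lie in the lower part of the grey cloud and inside the dashed lines.

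The other T cell genes were lower off fucose as well, by smaller differences at the median. All 17 measured genes of T cell receptor and signalling had negative differences, from -0.75 in Trat1, a T cell receptor-associated adaptor, to -0.07 in Cd28, with a median of -0.23, and 1 of them was at least 1.5-fold lower. Cd3e, a signalling chain of the T cell receptor, went from 10.97 to 10.55, and Cd5, Cd27 and Trat1 had -0.50, -0.45 and -0.75. Set against this median, 8 of the 9 transcription factor genes lay lower and Tox lay higher, where 25.6% of all genes past the filter lay lower. With all differences centred on the median of these T cell genes, the median of the 9 regulators was -0.17, that of all genes moved from -0.05 to 0.18, Tox turned to 0.21, and Id3 and Gata3 had -0.57 and -0.38, so none remained at least 1.5-fold lower. In RNA from mixed cells, fewer T cells and less RNA of a gene per T cell cannot be told apart.

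Markers of granulocyte precursors, basophils and mast cells, erythroid cells and monocytes, and cell cycle genes, were higher off fucose between the same arrays. The 12 measured granulocyte precursor markers had a median difference of 2.84, with 10 at least 2-fold higher, and a summed intensity of 130.3 on fucose and 3021 off fucose. On fucose, 4 of them, Ms4a3, S100a8, S100a9 and Camp, lay below the median gene and passed the filter through their off-fucose values, so no fold of the sum is given. Basophil and mast cell markers had a median of 1.34 (6 of 8 at least 2-fold higher) and erythroid markers 2.34 (7 of 9), with 2 and 1 of their genes below the median gene on fucose. Monocyte markers had a median of 1.55 (6 of 7, and 1.51 over all 8 measured) and cell cycle genes 1.44 (10 of 14). The monocyte genes Csf1r and F13a1 and the cell cycle gene Birc5, all in these counts, lay below the median gene on fucose. They passed the filter through their off-fucose values. Over all genes past the filter, 2.37% were at least 2-fold higher. The cDC1 markers had a median of 0.76, with 11 of 14 above 0 and 5 of 14 at least 2-fold higher. The 3 below 0 were Ly75 (-0.93), Itgae (-0.38) and Cd8a (-0.16), which were among the 4 cDC1 markers in the top 20% on fucose. The summed intensity of the T cell receptor and signalling list was 15492 on fucose and 12953 off fucose, a ratio of 0.836. That of the 9 regulators was 3226 and 2456, a ratio of 0.761. Lef1 alone gave 1370 and 1043 of these 2 sums, so their ratio leans on Lef1. The part of these cell mixtures, or of the sex-linked difference, in the lower values of the T cell regulators was not tested.

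Relatives from the same protein families, several of which serve other blood lineages, went both ways. Of 18 measured relatives, 10 had differences above 0 and 8 below 0, with a median of 0.070. A higher difference than the T cell gene of their family was seen in 16 of the 18. Most genes lay above these T cell genes as well. Of all genes past the filter, 1.13% lay at or below Id3, 13.2% at or below Foxp1 and 54.7% at or below Tox. The T cell genes of the other families lay between Id3 and Foxp1, so the count of 16 says little about the relatives. The 12 past the filter had a median of 0.17, or 0.40 with centring on the T cell genes. Of the 5 whose mean log2 intensity was 5 or more, 3 were below 0 and the median was -0.046. Gata2, the GATA factor of blood stem cells, basophils and mast cells, had 3.50 on fucose and 4.61 off fucose, higher by 1.11, and Gata1, the erythroid GATA factor, had 2.70 and 3.18, so that it passed the filter through its off-fucose value alone. The difference of Gata2 lay 1.72 above that of Gata3 on the log2 scale. Bcl11a, a relative of Bcl11b known in B cells and dendritic cells, went from 3.11 to 3.93, a difference of 0.82, where Bcl11b had -0.49.

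Within the forkhead genes, values differed as well. Foxp4 was the 1 relative past the filter that lay below its T cell counterpart, with 5.93 on fucose and 4.94 without it, a difference of -0.99 against -0.37 in Foxp1. Foxp3, the regulatory T cell factor, had 6.65 and 6.60, and Foxo3, Foxo4 and Foxo6 had differences of -0.10, 0.20 and 0.01 against -0.41 in Foxo1. Runx1, which acts in blood stem cells and T cells, had 0.13, Id2, which is known in innate lymphoid cells and cDC1, had -0.30, and Tox2 and Tox4 had 0.24 and 0.25. The other 6 measured relatives, Tcf7l1, Tcf7l2, Foxp2, Tox3, Id1 and Id4, did not pass the filter, and the annotation used here lists no probe set of its own for Runx2.

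**Figure D3:**
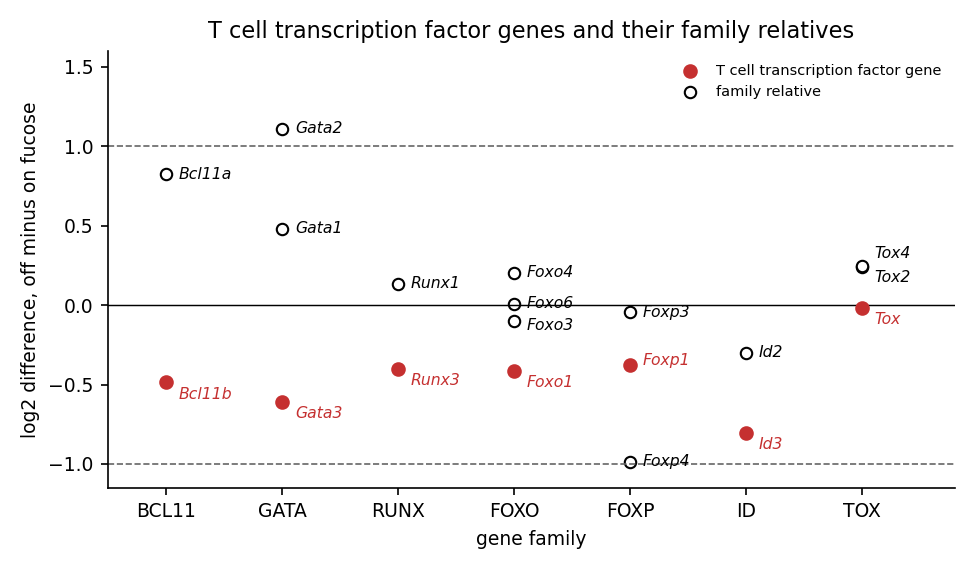
Log2 difference, off minus on fucose (y axis), of each T cell transcription factor gene (red) and its family relatives past the filter (open circles), by gene family (x axis). Dashed lines mark 2-fold. In each family except FOXP, all relatives shown lie above the red point. Most genes past the filter also lie above each red point but Tox.

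Genes that work with or under these regulators were mostly lower by small amounts. Of 14 cofactor genes of Tcf7 and Lef1 past the filter, 12 had negative differences, where 56.5% of all genes past it did. Their median was -0.34, with 1 at least 1.5-fold lower, and the median over all 17 measured was -0.17. Among them Pygo2, which links beta-catenin to chromatin, had -0.65, the beta-catenin gene Ctnnb1 had -0.47, the beta-catenin destruction gene Apc -0.48 and the coactivator gene Bcl9l -0.40. Cofactor genes of Runx3 and Bcl11b had a median of -0.12 over 13 genes, 12 of them below 0. Each had a mean log2 intensity of 5 or more, where the median of all genes was -0.076 and 61.5% lay below 0. The deacetylase gene Hdac1 had -0.37, the Runx partner Cbfb -0.28, Mbd3 -0.21 and Chd4 -0.19. With centring on the T cell genes, the first list's median stayed negative at -0.11 and the second turned to 0.11.

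Genes known as Foxo1 targets in T cells had a median of -0.30, and all 7 measured had lower values off fucose. Each had a mean log2 intensity of 5 or more, where 61.5% of all genes lay below 0. Sesn1, a stress-induced sestrin, went from 6.61 on fucose to 5.33 without it, a difference of -1.28, and was the 1 gene of the list at least 2-fold lower. Its relative Sesn3 had 7.51 and 6.82, the interleukin-7 receptor gene Il7r 9.87 and 9.52, and Klf2, which promotes T cell egress, 6.11 and 5.82. The egress receptor S1pr1, the lymph node homing receptor Ccr7 and the survival gene Bcl2 had -0.18, -0.18 and -0.09. Centring on the T cell genes moved the median of the list to -0.066.

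Other transcription factors of the T lineage had a median of -0.21 over 20 genes, and none was 1.5-fold apart. Of these genes 16 were below 0, where 56.5% of all genes past the filter were. Ikzf3, an Ikaros family gene, had -0.55, the E protein gene Tcf12 -0.42 and Bach2, a repressor that maintains naive cells, -0.37. Myb, a factor of T cell precursors that blood progenitors also use, differed the other way, with 6.57 on fucose and 7.15 off fucose. Centred on the T cell genes, the median was 0.017.

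Effector and activation factors went both ways, with 12 of 19 below 0, close to the 56.5% of all genes past the filter. Their median was -0.10, which turned to 0.13 with that centring. Tbx21, the T-box factor of type 1 helper T and NK cells, had 5.32 on fucose and 4.66 without it, a difference of -0.66, and its relative Eomes had -0.50. Nr4a1, an orphan receptor gene induced early by receptor signalling, was higher off fucose by 1.10 and its relative Nr4a3 by 0.57. Of the 9 type 2 genes known with Gata3, 7 were measured and 2 passed the filter, Ccr4 at -0.24 and Il4ra at -0.05, whereas the cytokine genes Il4, Il5 and Il13 had values between 2.43 and 3.03 on both arrays. Inhibitory receptor genes known with Tox had a median of 0.24 over 6 genes past the filter, of 8 measured. Cd244a was at 1.06, Tigit at 0.96, Ctla4 at 0.28 and Pdcd1, which encodes PD-1, at -0.23. These genes were dim, and none lay in the top 20% of either array. Cd244a had 3.19 on fucose and 4.25 off fucose, and Tigit 3.08 and 4.03, where the median gene on fucose had 2.88.

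Markers of other lymphoid cells that use some of these regulators gave a mixed picture. NK and innate lymphoid markers had a median of -0.40 over 11 genes. Of these, 8 were below 0, where 56.5% of all genes past the filter were. The interleukin-2 receptor gene Il2rb had -0.68, the perforin gene Prf1 -0.65 and the activating receptor gene Klrk1 0.81. With 2.69 on fucose, Klrk1 lay below the median gene there and passed the filter through its off-fucose value alone. Ncr1 and Klrd1 were also above 0, at 0.57 and 0.07. Tbx21 and Eomes, counted above among the effector factors, belong to this list too, so it does not reflect NK and innate lymphoid cells alone. The T cell part of its values was not tested. B cell markers had a median of -0.29 over 6 genes past the filter and -0.11 over all 10 measured, with Cd22, an inhibitory receptor of B cells, at -0.59 and the B lineage kinase gene Blk at 0.41, and none of the 10 measured lay in the top 20% of either array. Plasmacytoid dendritic cell markers went both ways, with 5 of 7 genes below 0 and 2 above. Their median was -0.15, and 0.084 once centred on the T cell genes. Irf7 and Pacsin1 were both at -0.44 and Klk1 at -0.40, whereas the transcription factor gene Tcf4 was at 0.41. Gapdh and Actb had 0.15 and -0.22, and the 8 measured housekeeping genes had a median of -0.0050, with Ywhaz lowest at -0.23 and Rplp0 highest at 0.16.

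**Figure D4:**
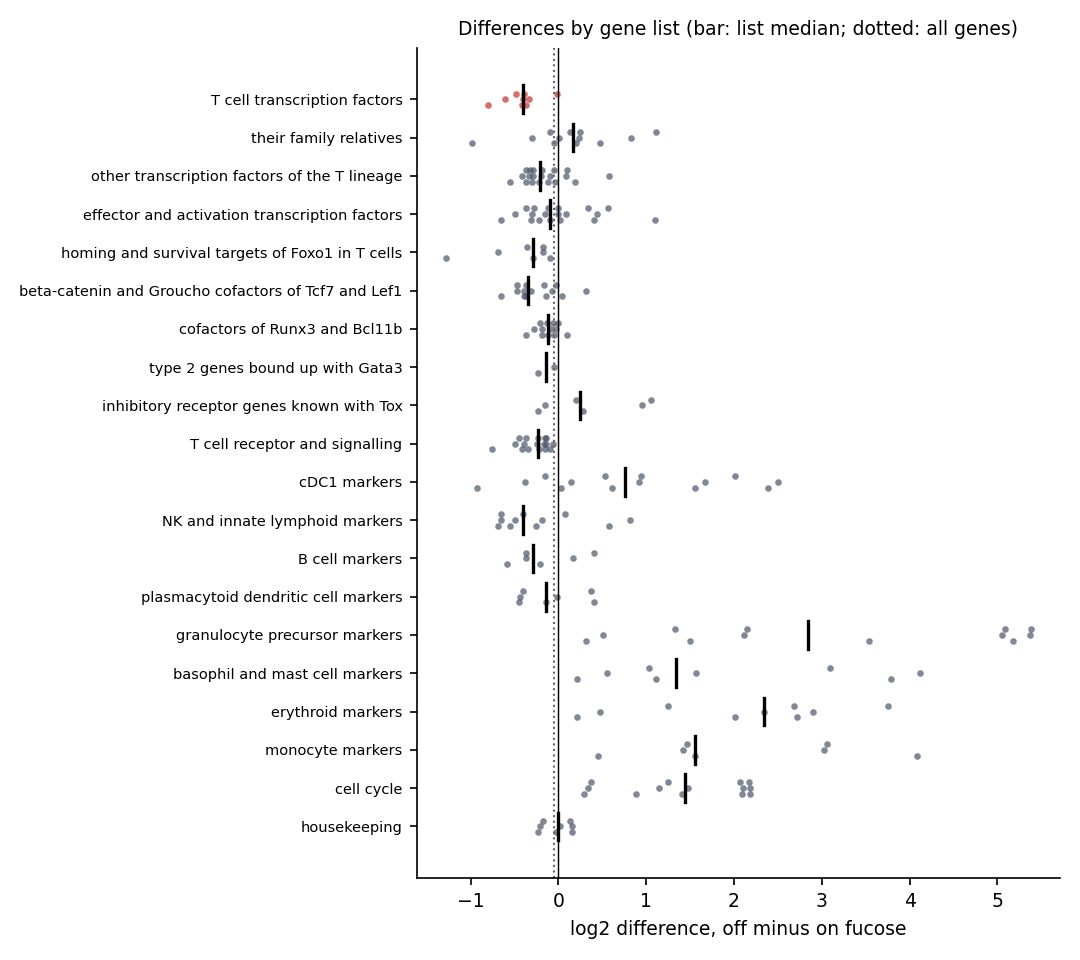
Log2 difference, off minus on fucose (x axis), of each gene past the filter in 20 gene lists (y axis), with the list median as a bar and that of the 11090 genes as a dotted line. The T cell transcription factor genes (red) lie at or left of the dotted line except Tox. The granulocyte precursor, basophil and mast cell, erythroid, monocyte and cell cycle lists lie to the right.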

How the data were processed

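Per the submitters' processing notes, the authors made the deposited values with RMA, which corrects background, normalises between arrays and summarises each probe set. Its version and the genome build are not given in the sources used here. The deposited table holds 1 linear intensity per probe set and array (41345 probe sets), from 2.74 to 8524 on fucose and from 3.15 to 9512 off fucose, and log2 was taken of each. Near-equal array distributions hide a shift of all genes. Platform annotation gave 23521 probe sets 1 symbol, 1814 several and 16010 none. The number of arrays limits the precision. Tools were Python 3.11.15, pandas 2.3.3, numpy 2.4.6 and statsmodels 0.14.6, and normalisation steps were tested on simulated data.

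The 10 genes and the 19 other lists were chosen with earlier results of these data known. Besides the 10 genes, up to 4 genes per list with the largest differences past the filter were named, all family relatives past it, and Cd3e, Xcr1, Itgax, Zbtb46, Gapdh and Actb. Cd28, S1pr1, Ccr7, Bcl2, Il4, Il5, Il13, Xist, Uty, and the cDC1 and granulocyte precursor markers outside the rule were named after their values were seen. The same holds for Csf1r, Ncr1 and Klrd1. Alternatives tried were the mean of probe sets, other filters, quantile normalisation, loess (span 0.3), 3 centrings and thresholds of 1.5-fold and 3-fold.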

Additional observations from a re-analysis of the deposited data

How the results depend on the processing

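No paired analysis was possible because there is only 1 array on fucose and 1 off fucose, which also means that neither could be dropped. All alternatives were planned. With 1 array per group, a difference or median counted as moved when it shifted by more than the robust SD among genes of like intensity. A number of genes counted as moved when it changed by more than 1.5-fold. The median of the 9 T cell regulators ran from -0.40 to -0.35 under quantile normalisation, loess, median and housekeeping centring, other filters and the mean of probe sets, with Tox turning above 0 in the first 3 of these. It was -0.17 with centring on the T cell genes, where Foxo1 targets had -0.066, cofactors of Runx3 and Bcl11b 0.11, the T cell list 0 and housekeeping genes 0.22. At least 1.5-fold lower were 2 regulators in the main analysis and 1 with the mean of probe sets, loess, median centring, quantile normalisation or a filter of 5 on the mean log2 intensity, which leaves out Id3.

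At 2-fold, 263 genes were higher and 57 lower. These counts were 414 and 28 with T cell centring, 97 and 25 at that filter, 640 and 473 at 1.5-fold and 118 and 12 at 3-fold. At the 67th percentile filter, medians were -0.44 for plasmacytoid, 5.07 for granulocyte precursor, 3.09 for basophil, 2.69 for erythroid and 2.29 for monocyte markers, and at a mean of 5 the last 4 were 5.18, 3.44, 2.91 and 3.03. These filters leave fewer genes. Inhibitory receptor and B cell lists had no gene past a mean of 5. For the other shifts, the cause was not tested.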
